A study of Mus musculus with 10 samples.

Results

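MYC, MAX and their antagonists form a network of transcription factors that compete for the same partner and the same DNA. MYC and its relative MYCN pair with MAX, bind the E-box sequence CACGTG and favour cell growth and division. MXD1, MXD4, MXI1 and MNT pair with MAX too and bring the SIN3-HDAC corepressor to E-boxes, MGA pairs with MAX inside a polycomb complex, and MLX joins MXD1, MXD4 and MNT to the glucose-sensing Mondo proteins. In resting B cells Myc RNA is kept low, and signals through the B cell receptor, CD40 or cytokine receptors induce it within a short time. The network was followed here through its 9 genes Myc, Mycn, Max, Mxd1, Mxd4, Mxi1, Mnt, Mga and Mlx, each chosen by its gene symbol. Each symbol was carried by 1 probe set, so 9 probe sets stand for the network among 19937 genes tested.

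The arrays were 10 Affymetrix Mouse Gene 1.0 ST arrays of spleen B cells sorted as B220+CD22+, all from the strain CBAxC57BL/6J. The groups were 3 arrays from wild-type mice, 3 from Sca1-Bcl6(floxed) mice, called floxed here, and 4 from Sca1-Bcl6(delta) mice, called delta here. Floxed mice carry a transgene with loxP sites around Bcl6 and an IRES-eGFP reporter, placed in a vector of the Sca1 (Ly6a) gene. In delta mice the floxed transgene was brought together with mb1-Cre, a recombinase expressed from the Cd79a locus of B lineage cells, so this group differs from wild-type in Cre as well. The labels name 2 transgenic lines without saying which array came from which, and give neither age nor sex nor whether each array was a separate animal. The p-values below therefore measure the spread between these arrays, which may in part be technical.

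Values are log2 of the deposited RMA intensity, in which 1 unit is a doubling. Log2 changes with standard errors (SE), 95% confidence intervals (CI) and Benjamini-Hochberg adjusted p-values come from limma over all genes, with a threshold of 0.05. B cell genes were high in all arrays, with Cd22 at 12.88 to 13.18 and Ms4a1 (CD20) at 13.20 to 13.31. The mean of 16 T cell genes lay within 0.17 of the wild-type mean in delta arrays but at 0.60, 0.00 and 0.39 above it in floxed 1, 2 and 3. For 5 other lists all 3 floxed arrays lay above every wild-type array. Their means above wild-type were 0.14 to 0.54 for 12 NK cell genes, 0.12 to 0.46 for 15 myeloid, 0.30 to 0.44 for 9 dendritic cell, 0.27 to 0.61 for 9 erythroid and 0.14 to 0.20 for 8 plasma cell genes. The highest wild-type arrays were at 0.05, 0.0033, 0.11, 0.16 and 0.08 in the same order. Genes with a positive change in floxed against wild-type were 10 of 12, 8 of 15, 4 of 9, 7 of 9 and 5 of 8, beside 41.9% of all genes. The median changes were 0.19, 0.04, -0.03, 0.11 and 0.11, beside -0.02 for all genes. Most dendritic cell genes thus did not share the rise of their mean. Of the plasma cell genes limma called 1 higher and 1 lower, beside 0.391% and 0.161% of all genes. In delta arrays the same 5 means lay at -0.11 to 0.25, 0.05 to 0.38, 0.01 to 0.35, -0.30 to 0.20 and -0.06 to 0.10. All delta arrays were thus above every wild-type array for the myeloid list. Genes with a positive change in delta against wild-type were 6 of 12, 6 of 15, 4 of 9, 6 of 9 and 4 of 8 in the same order, beside 43.6% of all genes. The median changes were 0.01, -0.01, -0.01, 0.06 and -0.01, beside -0.01 for all genes. Most myeloid genes thus did not share the rise of their mean in delta arrays. Delta 4 was the highest delta array for NK cell (0.25), myeloid (0.38) and dendritic cell genes (0.35). The part of these cell types in the floxed and delta values below was not tested, apart from a fit that includes the T cell mean. In bulk RNA more cells of a type and more RNA per cell cannot be told apart. The sexes differed between groups: a male pattern (Y-linked genes above Xist) was present in 0 of 3 wild-type, 3 of 3 floxed and 1 of 4 delta arrays, the last being delta 1. Bcl6 did not pass the threshold in floxed or delta against wild-type (log2 change -0.17 and -0.35), and Cd79a was lower in delta arrays by limma (log2 change -0.48, adjusted p = 0.0427). That call of Cd79a held in 11 of 22 other settings, at changes of -0.51 to -0.46. It ended with every probe set kept (adjusted p = 0.0513), with the 2 groups alone (0.0784), with the replicate block (0.116) and with sex pattern (0.0677) or the immediate early mean (0.164) as a covariate. It also ended without wild-type 1 or 2 (0.129 and 0.211), floxed 1 or 3 (0.0659 and 0.0519) and delta 1 or 3 (0.0677 and 0.0688). The settings are not all distinct. With sex pattern or without delta 1 the change of Cd79a was the same, -0.49, and with the replicate block or without delta 4 it was -0.47.

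Myc was the member whose groups stood furthest apart. Its probe set was not dim: its mean log2 level over all arrays was 10.79, at percentile 94.9 of the genes tested. Its log2 level was 10.24, 9.87 and 10.63 in wild-type 1, 2 and 3, and 10.87, 10.99 and 10.76 in floxed 1, 2 and 3. In delta 1, 2, 3 and 4 it was 11.81, 10.71, 10.83 and 11.23. Every floxed and every delta array thus lay above every wild-type array, by as little as 0.07 between delta 2 and wild-type 3, while floxed and delta arrays overlapped. As intensity, Myc averaged 1244 ± 326 over the wild-type arrays (SD, n = 3). The floxed average was 1883 ± 153 (SD, n = 3), and the delta average 2374 ± 878 (SD, n = 4).

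Relative to wild-type, Myc differed by 0.63 on the log2 scale in floxed arrays, a ratio of 1.55 (SE 0.26, 95% CI 0.07 to 1.19). The delta arrays differed by 0.90, a ratio of 1.86 (SE 0.24, 95% CI 0.37 to 1.42). Neither passed the limma threshold over all genes, with adjusted p of 0.330 and 0.293. The unadjusted p of Myc were 0.0311 and 0.00301, and 1876 and 202 of the 19937 genes had a smaller p in these comparisons. Both comparisons use the same wild-type arrays. Delta against floxed gave 0.27 (95% CI -0.25 to 0.79, adjusted p = 0.879), an interval that includes 0.

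Myc also varied more within groups than most genes did. Its SD within groups was 0.37 on the log2 scale, larger than for 98.6% of genes, whereas that of the other 8 members was 0.06 to 0.12. Delta 1 had the highest Myc and wild-type 2 the lowest. Without delta 1 the change in delta against wild-type was 0.67 (SE 0.18, limma adjusted p = 0.421) and that in delta against floxed 0.05 (SE 0.18). Without wild-type 2 the changes were 0.44 in floxed (SE 0.27, adjusted p = 0.659) and 0.71 in delta arrays (SE 0.26, adjusted p = 0.654).

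**Figure D1:**
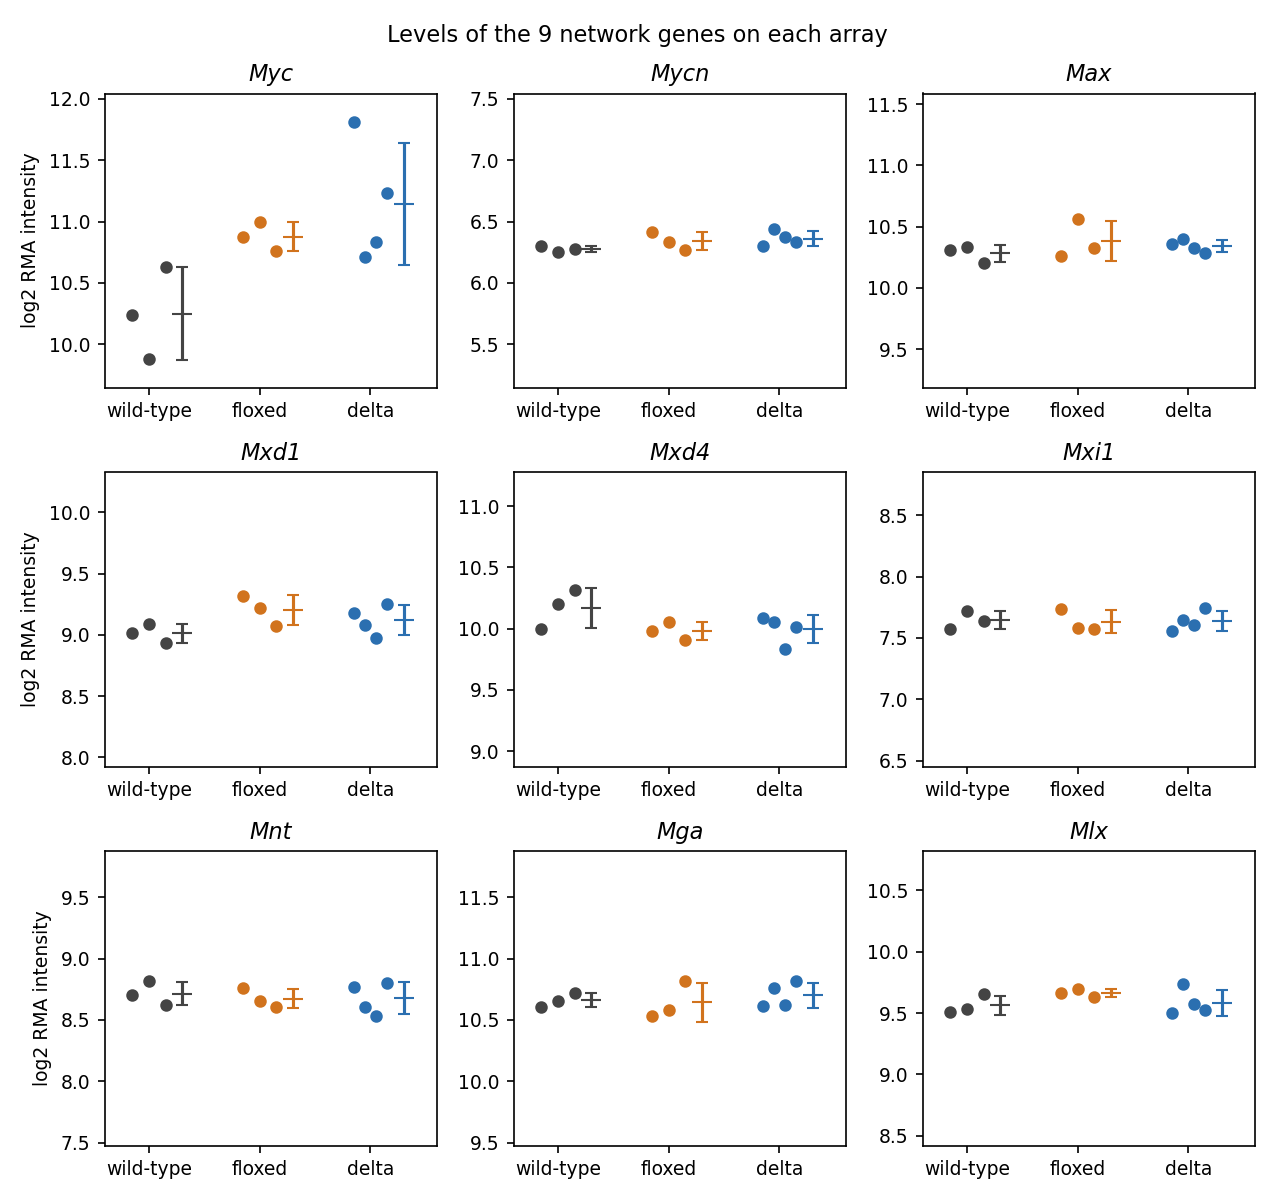
Log2 RMA intensity (vertical axis, same span of 2.4 units in each panel) of the 9 network genes in wild-type (n = 3), floxed (n = 3) and delta (n = 4) arrays; each point is an array, and bars give the group mean and SD. Myc spans 9.87 to 11.81 with all wild-type arrays lowest, while each of the other genes stays within 0.49 over all 10 arrays.

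Sex and transgene cannot be told apart for Myc in floxed against wild-type, because all floxed and no wild-type arrays had the male pattern. With sex pattern as a covariate the limma change of Myc in floxed against wild-type turned to -0.26 (SE 0.31, adjusted p = 0.889). That fit takes the effect of sex from delta 1 alone, which had the highest Myc of all arrays. In delta against wild-type the same fit gave 0.67, which is the value among arrays of female pattern. The sexes were uneven in delta against floxed too, with the male pattern in 1 of 4 delta and 3 of 3 floxed arrays. There the same fit gave 0.94, beside 0.27 without the covariate. Floxed 2 had the highest Myc of its group. Its dendritic cell mean, 0.44 above wild-type, was the highest of all arrays. Its T cell (0.00), NK cell (0.14) and plasma cell means (0.14) were the lowest of the floxed group. In a fit that includes the T cell mean the changes of Myc were 0.67 in floxed and 0.89 in delta against wild-type.

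Myc is counted among the immediate early genes, which answer a stimulus or handling within minutes, and these genes were set beside it. The mean of 18 immediate early genes (such as Fos, Egr1, Junb and Nr4a1), a list added after the data had been seen, was 0.86 above the wild-type mean in delta 1 and 0.39 above it in delta 4. These arrays also had the highest and second highest Myc. Floxed arrays lay 0.15 to 0.28 above the wild-type mean, and wild-type arrays between -0.13 and 0.22. The wild-type array at 0.22 was wild-type 2, which had the lowest Myc of all arrays. Delta 2 and 3 lay at 0.10 and 0.04, within the wild-type range, although their Myc was above that of every wild-type array. Over the 10 arrays Pearson's r between Myc and this mean was 0.73 and Spearman's rho 0.70, given as a description. With the immediate early mean as a covariate the changes of Myc were 0.45 in floxed (SE 0.23) and 0.60 in delta against wild-type (SE 0.24), both short of the limma threshold (adjusted p = 0.449 and 0.756). The part of these genes' shared variation in the level of Myc was not tested.

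Counted over the network, limma called 0 of 9 members in floxed against wild-type, where 0.552% of all genes were called (0.391% higher, 0.161% lower). It called 0 of 9 in delta against wild-type, against 0.0752% of all genes (0.0301% higher, 0.0451% lower), and 0 of 9 in delta against floxed, against 0.00502%. At an unadjusted p under 0.05 there was 1 member, Myc, in each comparison with wild-type and 0 in delta against floxed, where 12.8%, 7.89% and 6.42% of all genes reached that level. Groups did not overlap for 1 of 9 members, again Myc, in floxed and in delta against wild-type, beside 16.7% and 9.25% of all genes (upward 7.6% and 3.75%, downward 9.13% and 5.5%). These shares of the members are close to the background. In delta against floxed the groups overlapped for all 9 members, beside 6.96% of genes whose groups did not (3.36% upward, 3.61% downward). The median size of the members' changes was 0.10 in floxed and 0.06 in delta arrays relative to wild-type, and 0.04 between the transgenic groups, beside 0.08, 0.06 and 0.06 for all genes.

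**Figure D2:**
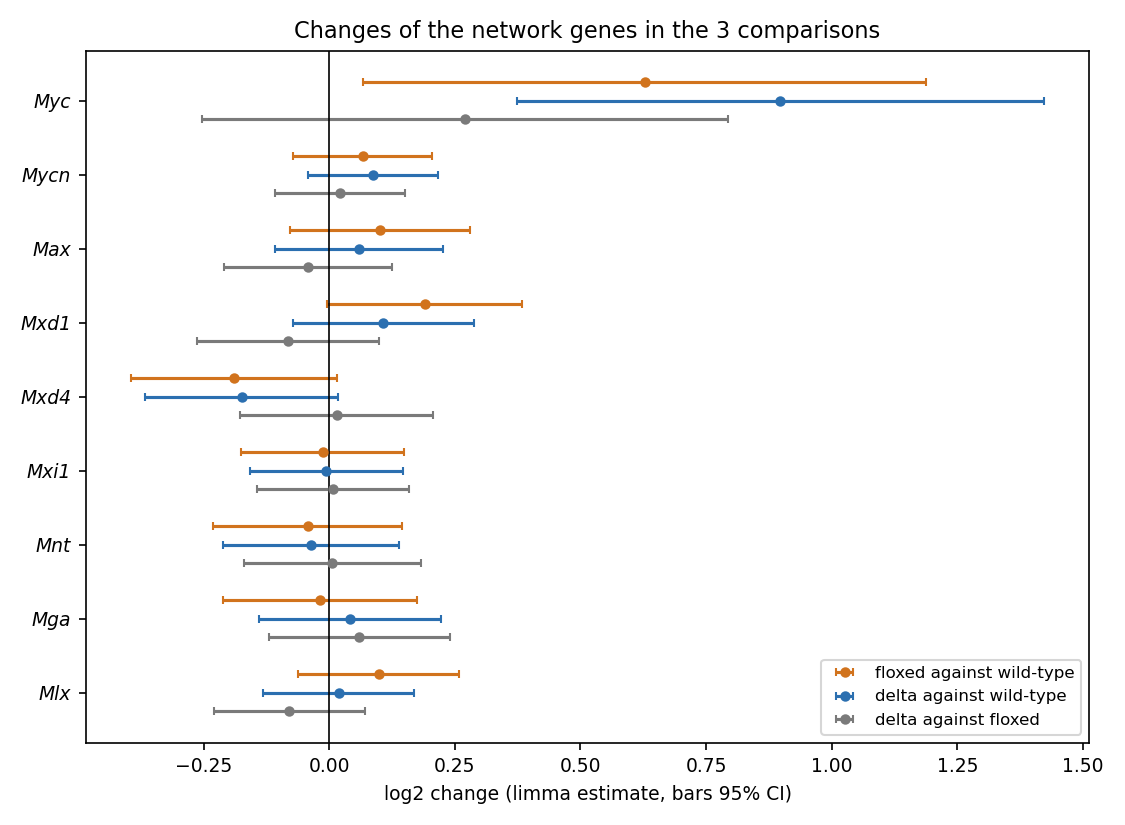
Log2 changes of the 9 network genes (points) with 95% CI from limma (bars) in the 3 comparisons between groups; the horizontal axis is log2 change and the line marks 0. The intervals of Myc lie above 0 in both comparisons with wild-type, from 0.07 to 1.19 and from 0.37 to 1.42, and those of the other 8 genes include 0.

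Mycn, the paralogue of Myc that is active mainly in early development and in precursor cells, had low and even log2 levels. They were 6.25 to 6.30 in wild-type, 6.27 to 6.42 in floxed and 6.30 to 6.44 in delta arrays. Its changes were 0.07 in floxed (95% CI -0.07 to 0.20) and 0.09 in delta against wild-type (95% CI -0.04 to 0.22). No detection call accompanied the values used here, so a level of this size does not show whether Mycn is expressed in these cells.

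Max, the partner that MYC and the antagonists share, lay at 10.21 to 10.33 in wild-type, 10.26 to 10.57 in floxed and 10.28 to 10.40 in delta arrays. The 3 ranges overlapped, and floxed 2 was the highest array at 10.57. The change of Max was 0.10 in floxed (95% CI -0.08 to 0.28) and 0.06 in delta against wild-type (95% CI -0.11 to 0.23). Without floxed 2 the floxed change of Max was 0.0097, and without floxed 1 it was 0.16. The delta change of Max was 0.02 without wild-type 3 and 0.04 without delta 2.

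Among the antagonists, Mxd1 and Mxd4 had the largest changes, in opposite directions and both short of the threshold. Mxd1, which is induced as cells leave the cycle and differentiate, had log2 levels of 9.02, 9.09 and 8.93 in wild-type and 9.32, 9.22 and 9.07 in floxed 1, 2 and 3. It was 8.97 to 9.25 in delta arrays, so all groups overlapped. Floxed arrays differed from wild-type by 0.19 (SE 0.09, 95% CI -0.0035 to 0.38, limma adjusted p = 0.399). Delta arrays differed by 0.11 (95% CI -0.07 to 0.29). Across the 10 arrays Pearson's r of Mxd1 with the T cell mean was 0.53 and with Myc 0.45, both as descriptions.

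Mxd4, an antagonist found in resting and differentiated cells, had log2 levels of 9.997, 10.20 and 10.32 in wild-type 1, 2 and 3. Floxed arrays lay at 9.98, 10.06 and 9.91 and delta arrays at 10.09, 10.05, 9.83 and 10.01. Wild-type 2 and 3 were thus above all others, while wild-type 1 lay among the transgenic arrays. Relative to wild-type, Mxd4 differed by -0.19 in floxed arrays (SE 0.09, 95% CI -0.39 to 0.02, limma adjusted p = 0.432). In delta arrays it differed by -0.17 (SE 0.09, 95% CI -0.37 to 0.02, limma adjusted p = 0.681). Leaving out wild-type 3 gave -0.12 in floxed and -0.10 in delta arrays for Mxd4, and leaving out wild-type 1 gave -0.28 and -0.26.

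Mxi1 (also called MXD2) and Mnt, the antagonist that most cell types express throughout the cell cycle, were level across the groups. Mxi1 lay between 7.55 and 7.75 on all 10 arrays, with changes of -0.01 in floxed (95% CI -0.17 to 0.15) and -0.01 in delta against wild-type (95% CI -0.16 to 0.15). The sign of these values of Mxi1 turns with quantile normalization or centring of the arrays. Mnt lay between 8.53 and 8.81, with changes of -0.04 in floxed (95% CI -0.23 to 0.14) and -0.04 in delta (95% CI -0.21 to 0.14). Mxi1 has 3 start sites in the RefSeq table, and its single probe set gives no level for each isoform.

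Mxd1 and Mnt moved together from array to array. After removal of the group means their Pearson's r was 0.95, the highest of the 36 pairs of members, and without that removal it was 0.61 over the 10 arrays. Both were lowest within the delta group in delta 3 and highest in delta 4. In the floxed group both were highest in floxed 1, and in the wild-type group both were highest in wild-type 2. The correlation is a description over arrays that share groups and normalization, and the pair was picked with its values in view.

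Mga, the large MAX partner of the polycomb complex PRC1.6, lay at 10.61 to 10.72 in wild-type, 10.53 to 10.82 in floxed and 10.61 to 10.82 in delta arrays. Its changes were -0.02 in floxed (95% CI -0.21 to 0.17), of positive sign when arrays were centred on their medians, and 0.04 in delta against wild-type (95% CI -0.14 to 0.22). Mlx, the MAX-like partner that links MXD1, MXD4 and MNT with the Mondo proteins, lay at 9.51 to 9.65, 9.63 to 9.69 and 9.50 to 9.73 in the same order. Its changes were 0.10 (95% CI -0.06 to 0.26) and 0.02 (95% CI -0.13 to 0.17).

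The E-box that the network's dimers bind was looked for in the 250 bases before the start sites of its own genes. The search was for the letters CACGTG, which read the same on both strands. RefSeq promoters of build GRCm38.p6 were matched for 8 of the 9 genes by symbol, Mycn, Max, Mxd1, Mxd4, Mxi1, Mnt, Mga and Mlx. The motif occurred in 3 of these 8 genes, beside 6.86% of 27025 genes in the table. The stretches below hold up to 50 bases on each side of the motif, within the 250 bases, written 5′ to 3′ on the gene's strand with the E-box in capitals. They lie at chr5:34187874-34187960 on the minus strand for Mxd4, at chr11:74830751-74830856 on the plus strand for Mnt and at chr11:101087200-101087289 on the plus strand for Mlx.
Mxd4: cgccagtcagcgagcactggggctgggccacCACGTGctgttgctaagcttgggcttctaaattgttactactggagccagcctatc
Mnt: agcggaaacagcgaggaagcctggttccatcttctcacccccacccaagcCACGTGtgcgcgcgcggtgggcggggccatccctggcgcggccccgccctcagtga
Mlx: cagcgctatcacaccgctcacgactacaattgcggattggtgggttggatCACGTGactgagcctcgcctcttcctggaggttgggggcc
The E-box begins 219 bases before the start site in Mxd4, 123 before it in Mnt and 40 before it in Mlx. None of the 3 genes passed the threshold in any comparison, and a match is a run of letters, not a measured binding site.

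The genes that MYC is known to activate were described from a list of 40, chosen with earlier results of these data known, of which 39 were measured. In floxed against wild-type 1 rose, 0 fell and 38 did not pass the limma threshold, where 0.391% of all genes were called higher and 0.161% lower. Of the 39 changes, 37 were positive, where 41.9% of all genes had a positive change, and their median was 0.17 beside -0.02 for all genes. With arrays centred on their medians 38 were positive beside 55.0% of all genes, and after quantile normalization 36 beside 51.1%. Floxed 2, whose mean of this list was the highest, was also the highest array for the dendritic cell list (0.44). It was the lowest floxed array for T cell (0.00), NK cell (0.14) and plasma cell genes (0.14). Floxed 1 was the highest array for T cell (0.60), NK cell (0.54), myeloid (0.46) and erythroid genes (0.61). Its mean of the activated list was the lowest of the floxed group (0.14). In floxed against wild-type, adjusting for the mean of T cell genes gave 38 of 39 positive changes, beside 40.4% of all genes. Their median was then 0.24. Adjusting for sex pattern gave 33 positive changes, beside 44.6% of all genes, and a median of 0.21. The latter fit takes the effect of sex from delta 1 alone. Sex and transgene coincide in this comparison, so their parts in the list cannot be separated. The part of cell types other than T cells in this list was not tested. For 16 of 39 every floxed array lay above every wild-type array, beside 7.6% of all genes. In delta against wild-type 0 of 39 passed, beside 0.0752% of all genes. There 30 changes were positive, beside 43.6% of all genes, and the median was 0.10 beside -0.01. For 4 of 39 every delta array lay above every wild-type array, beside 3.75% of all genes. The 2 comparisons share the wild-type arrays. Delta against floxed had a median of -0.07 beside 0.00, with 0 of 39 past the threshold. There 8 changes were positive, beside 52.1% of all genes, or 4 with centred arrays, beside 43.0%. Every delta array lay below every floxed array for 7 of 39 genes, beside 3.61% of all genes, and above for 0 of 39, beside 3.36%.

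The gene that rose was Slc7a5, which encodes the light chain of the LAT1 transporter for large neutral amino acids. Its log2 level was 8.92, 8.88 and 9.17 in wild-type, 9.51, 9.48 and 9.40 in floxed and 9.14 to 9.29 in delta arrays. The change was 0.47 in floxed against wild-type (SE 0.08, limma adjusted p = 0.0351) and 0.24 in delta arrays (SE 0.08, adjusted p = 0.428). The call of Slc7a5 ended without wild-type 1 or 2 (adjusted p = 0.130 and 0.132), without floxed 1, 2 or 3 (0.0943, 0.114 and 0.0793) and without delta 3 (0.0587), at changes of 0.42 to 0.51. It also ended with sex pattern (0.39, adjusted p = 0.629), the T cell mean (0.47, adjusted p = 0.188) or the immediate early mean as a covariate (0.47, adjusted p = 0.0754), with the replicate block (adjusted p = 0.0531) and with the 2 groups alone (adjusted p = 0.0622).

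Other genes of this list had positive changes that did not pass. Odc1, the first enzyme of polyamine synthesis and a textbook MYC target, had 0.67 in floxed (SE 0.24, adjusted p = 0.275) and 0.61 in delta arrays (SE 0.23, adjusted p = 0.516). Ncl, the nucleolar protein nucleolin, had 0.23 and 0.14 (adjusted p = 0.111 and 0.506). The 2 negative changes in floxed were those of Tfrc, the transferrin receptor, at -0.17 and of Shmt1, an enzyme of one-carbon metabolism, at -0.01. The choice of Odc1, Ncl, Tfrc and Shmt1 lies outside the naming rule and was made with their values in view.

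**Figure D3:**
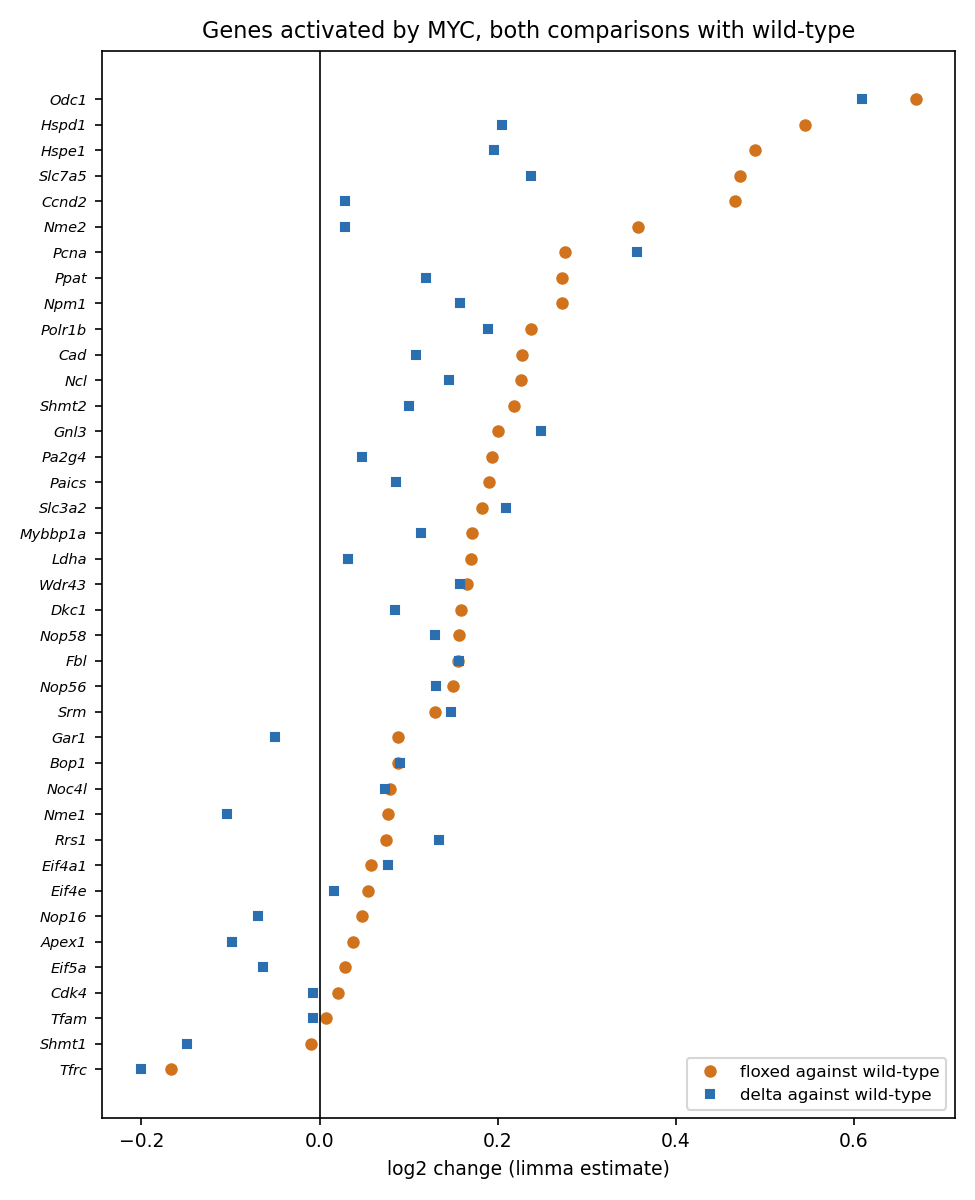
Log2 change (horizontal axis, limma estimate) of the 39 measured genes of the MYC-activated list (rows, ordered by the floxed value) in floxed against wild-type (circles) and delta against wild-type (squares). In floxed 37 circles lie above 0, in delta 30 squares do, and Slc7a5 at 0.47 in floxed is the single change past the threshold.

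Set beside Myc on each array, the mean of the MYC-activated list was highest in floxed 2, at 0.25 above the wild-type mean, with 0.14 and 0.17 in floxed 1 and 3. In delta 1 and delta 4, the arrays of highest Myc, it was 0.09 and 0.02, against 0.10 and 0.16 in delta 2 and 3. Wild-type 2, the array of lowest Myc, also had the lowest list mean at -0.09. Pearson's r of Myc with this mean over the 10 arrays was 0.48 and Spearman's rho 0.45, as a description. The arrays with most Myc RNA were therefore not those with the highest level of the list.

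**Figure D4:**
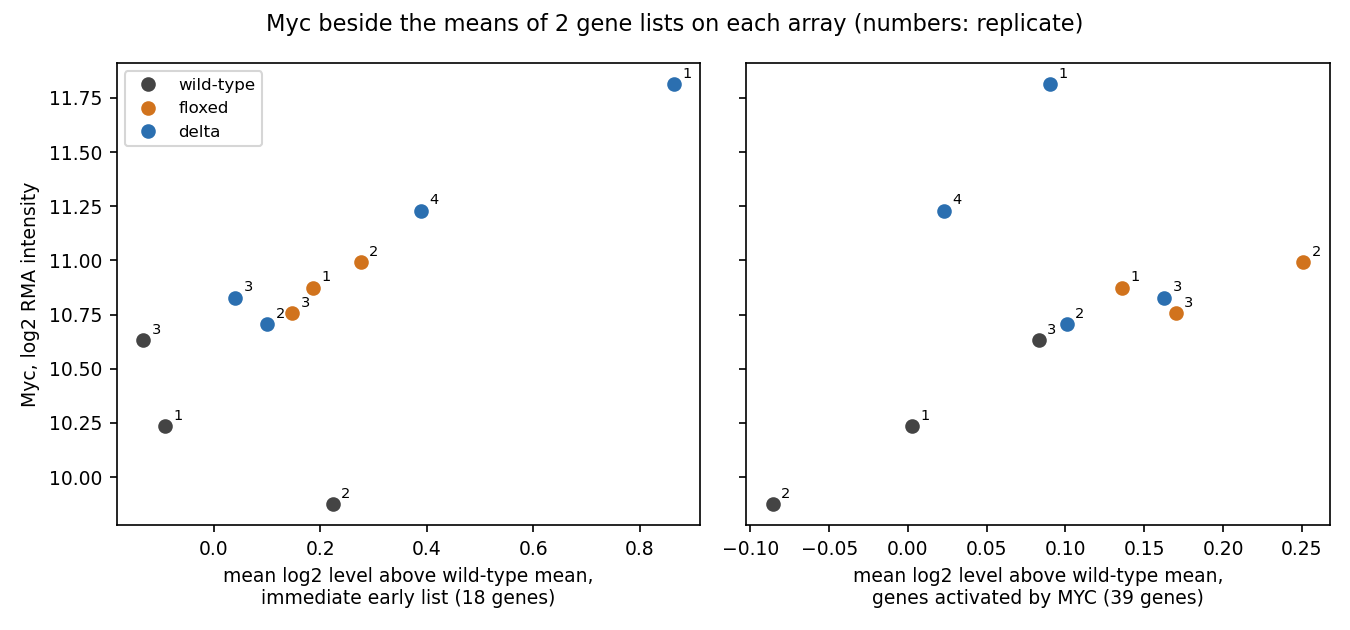
Log2 RMA intensity of Myc (vertical axis) on each of 10 arrays against the mean log2 level, above the wild-type mean, of 18 immediate early genes (left) and of 39 genes activated by MYC (right); each point is an array, coloured by group and numbered by replicate. Delta 1 is highest for Myc (11.81) and for the immediate early mean (0.86), while floxed 2 has the highest mean of the activated genes (0.25).

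The promoters of the activated genes held the E-box in 9 of 33 matched genes, 27.3%, beside 6.86% of all genes in the table and with the same search. Of the 12 matched genes of the MYC-repressed list it was 2, or 16.7%.

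The list of genes repressed by MYC had 17 of 18 members measured. In floxed against wild-type 0 rose, 1 fell and 16 did not pass, where 0.391% of all genes were called higher and 0.161% lower. The median was 0.05 beside -0.02 for all genes, and 10 changes were positive, beside 41.9% of all genes. After quantile normalization 14 changes were positive, beside 51.1%, and with centred arrays 15, beside 55.0%. With centred arrays Gadd45g, a growth arrest gene, passed as well (0.51, limma adjusted p = 0.0437). The list median was 0.05 in delta against wild-type, with 0 of 17 past the threshold, beside 0.0752% of all genes. The member that fell was Mir15a, the gene of a microRNA that restrains Bcl2 and cell cycle genes. Its log2 level was 9.13, 9.20 and 8.70 in wild-type, 8.14, 8.02 and 8.15 in floxed and 8.18, 8.21, 8.66 and 8.24 in delta arrays. Wild-type arrays were all above the others, with wild-type 3 at 8.70 next to delta 3 at 8.66.

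The change of Mir15a was -0.91 in floxed (SE 0.14, limma adjusted p = 0.0239) and -0.68 in delta arrays (SE 0.14, adjusted p = 0.150). The call ended without wild-type 1 or 2 (adjusted p = 0.0953 and 0.111) and without floxed 1, 2 or 3 (0.0600, 0.0935 and 0.0793), at changes of -0.93 to -0.81. It also ended with sex pattern (-0.72, adjusted p = 0.602), the T cell mean (-0.93, adjusted p = 0.145) or the immediate early mean as a covariate (-0.87, adjusted p = 0.0562). The mature product, whose seed (bases 2 to 8, in capitals) is what pairs with target transcripts, is shown as given by RefSeq for chr14:61632075-61632096 on the minus strand of GRCm38.p6. The probe set is labelled by the gene, so the level of the mature form was not measured.
mmu-miR-15a-5p: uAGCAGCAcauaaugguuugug

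Upstream regulators of Myc transcription in B cells were described from a list of 21 genes, 19 of them measured. In floxed against wild-type 1 rose, 0 fell and 18 did not pass, where 0.391% of all genes were called higher and 0.161% lower. The median was 0.01 beside -0.02 for all genes. In delta against wild-type 0 of 19 passed, beside 0.0752% of all genes. The gene that rose was Stat3, which carries signals of interleukin receptors to the nucleus and is a known activator of Myc. Stat3 had log2 levels of 10.71, 10.69 and 10.59 in wild-type, 11.03, 11.17 and 11.14 in floxed and 10.89 to 11.04 in delta arrays. All transgenic arrays lay above all wild-type arrays. The change of Stat3 was 0.45 in floxed (SE 0.07, limma adjusted p = 0.0171) and 0.29 in delta arrays (SE 0.06, adjusted p = 0.174). Its call ended without wild-type 1 or 2 (adjusted p = 0.0567 and 0.0717), without floxed 2 or 3 (0.0750 and 0.0676) and with sex pattern (0.52, adjusted p = 0.365) or the T cell mean (0.49, adjusted p = 0.0944) as a covariate. Prdm1, which encodes the Myc repressor Blimp-1, had 0.22 and -0.04 in floxed and delta against wild-type, and Foxo1 had -0.07 and -0.04, none past the threshold. Prdm1 and Foxo1 were picked with their values in view.

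The SIN3-HDAC corepressor that the MXD proteins and MNT recruit had 15 of 16 genes measured. In floxed against wild-type 1 was higher, 0 lower and 14 not past the limma threshold, beside 0.391% higher and 0.161% lower of all genes. Hdac1, a histone deacetylase, rose by 0.44 (SE 0.07, adjusted p = 0.0179), from 10.60 to 10.73 in wild-type to 11.03 to 11.14 in floxed arrays, with delta arrays at 10.93 to 11.09. The list median was -0.02, as was that of all genes to 2 decimals. In delta against wild-type 0 of 15 passed, beside 0.0752% of all genes, with Hdac1 at 0.32 (adjusted p = 0.144). The call of Hdac1 ended without wild-type 1 or 2 (adjusted p = 0.0554 and 0.0938) and without floxed 2 or 3 (0.0750 and 0.0697). It ended with sex pattern (adjusted p = 0.484) or the T cell mean (adjusted p = 0.0907) as a covariate as well. A further probe set of Hdac1 had 0.49 in floxed against wild-type (SE 0.10), which did not pass when every probe set was kept (limma adjusted p = 0.0614).

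The counts of the next 4 lists stand beside 0.552% of all genes called in floxed against wild-type. The shares were 0.0752% in delta against wild-type and 0.00502% in delta against floxed, so a count of 0 in lists of this size is close to the background. Of the cofactors through which MYC acts on chromatin, 0 of 15 measured genes passed in any comparison, with medians of 0.03 and 0.04 in floxed and delta against wild-type. In floxed 8 of the 15 were positive, beside 41.9% of all genes, or 14 with centred arrays, beside 55.0%. Centring shifts the change of every gene by the same amount. Kat2a, a histone acetyltransferase, had 0.06 in floxed, and Mycbp, a MYC-binding protein, had -0.12. Of the genes that set the lifetime of MYC protein, 0 of 17 passed in any comparison, with a median of 0.09 in floxed. Deubiquitinases that spare MYC from degradation had values of opposite sign that did not pass: Usp36 at 0.22 (adjusted p = 0.131) and Usp28 at -0.24 (adjusted p = 0.149) in floxed against wild-type by limma. In the PRC1.6 complex around MGA 0 of 11 genes passed in any comparison, with Tfdp1 at 0.27 and Tfdp2 at -0.25 in floxed, both partners of E2F factors. Among targets of the Mondo-MLX dimers 0 of 6 passed, with the hexokinase gene Hk2 at 0.42 (adjusted p = 0.174) and the glucose transporter gene Slc2a1 at 0.25 (adjusted p = 0.433) in floxed.

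Related factors outside the 9 genes were taken from a list of 11, all measured, with medians of 0.02 and 0.04 in floxed and delta against wild-type. In these comparisons 0 of 11 passed, beside 0.552% and 0.0752% of all genes, and 0 of 11 in delta against floxed, beside 0.00502%. The 2 with the smallest p were the E-box repressors Bhlhe40 and Bhlhe41, also known as DEC1 and DEC2. Bhlhe40 had log2 levels of 8.77, 8.71 and 8.25 in wild-type, 9.44, 9.66 and 9.53 in floxed and 9.89, 9.004, 9.44 and 10.01 in delta arrays. Like Myc it lay above all wild-type arrays in every transgenic array, with changes of 0.97 in floxed (SE 0.23, adjusted p = 0.0909) and 1.01 in delta (SE 0.21, adjusted p = 0.161). Bhlhe41 had 1.37 in floxed (SE 0.39, adjusted p = 0.153) and 0.74 in delta arrays (SE 0.37, adjusted p = 0.675). Mycl and Mxd3, the remaining members of the MYC and MXD families, had -0.20 and -0.04 in floxed and -0.05 and 0.04 in delta against wild-type, and were picked with their values in view.

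The genes whose levels followed Myc most closely over the 10 arrays were named by Pearson's r among all genes tested, as a description. They were Sde2 (r = 0.97), Ghitm (0.97), Taf4b (0.97), Gpr183 (0.95) and Uap1 (0.94), with Spearman's rho of 0.95, 1.00, 0.95, 0.87 and 0.98. Over so many genes and 10 arrays high values arise readily. The highest r in the same search was 0.89 (Mycn) to 0.96 (Mxd1) for the other members. Taf4b encodes a subunit of the general factor TFIID, and Gpr183 the oxysterol receptor EBI2 that positions activated B cells. Gpr183 lay at 11.15 to 11.44 in wild-type, 11.64 to 11.89 in floxed and 11.67 to 12.45 in delta arrays, highest in delta 1 like Myc. Ghitm, an inner mitochondrial membrane protein gene, ranked the 10 arrays in the same order as Myc. The span of Sde2 was far smaller, from 9.38 to 9.57 over all arrays.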

How the data were processed

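Expression was measured on 10 arrays: 3 wild-type, 3 floxed and 4 delta, grouped by the sample titles. The authors deposited 1 RMA intensity for each probe set (RMA per the submitters' processing notes), on a linear scale from 4.46 to 26808. Which software ran RMA, and on which annotation build, is not given in the sources used here. Of 34760 probe sets, 21640 carried 1 symbol in the platform annotation, 1321 several and 11799 none. For 954 genes with several such probe sets the one of highest mean was used.

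Log2 values of 19937 genes were fitted with limma 3.58.1 in R 4.3.3 (lmFit with 3 group means, eBayes; 11.3 degrees of freedom in total), two-sided. The fit was tested on simulated data. The number of arrays limits the precision. Array medians lay between 139 and 145.

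The members and lists were chosen with earlier results of these data known. The naming rule took all members, list genes past the threshold or else the 2 of smallest p in floxed against wild-type, and the 5 genes closest to Myc by Pearson's r. Alternatives covered normalization, a filter on dim genes, probe set choice, the variance prior, array weights, the arrays in the fit, a replicate block, covariates for sex pattern and T cell genes, and leaving out each array. The immediate early covariate was chosen after seeing the data. Covariates came from means of the named genes per array. Replicate numbers were not taken as pairing in the main fit. Promoter and microRNA sequences are from RefSeq, GRCm38.p6.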

Additional observations from a re-analysis of the deposited data

How the results depend on the processing

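Over 21 other settings and 1 chosen after seeing the data, 0 of 9 members passed the limma threshold in any comparison, and 537 of 591 member values kept their sign. The 54 that turned belonged to changes that had not passed. The cause of a turn was not tested. Myc kept its sign except with sex pattern as a covariate, where floxed against wild-type was -0.26. Its lowest adjusted p was 0.163 in floxed, with the 2 groups alone, and 0.159 in delta against wild-type, without delta 2. For floxed against wild-type, Mxi1 became 0.013 after quantile normalization, 0.024 after centring and 0.10 with sex pattern; Mga became 0.018 after centring, 0.10 with sex pattern and 0.0010 with the immediate early mean. For delta against wild-type, Mxi1 became 0.0035 after quantile normalization, 0.011 after centring, 0.0077 with array weights, 0.023 with sex pattern, 0.0043 with the T cell mean and 0.0017 with the immediate early mean. For delta against floxed, quantile normalization gave Mycn -0.011 and Mxi1 -0.0098. Centring gave Mxd4 -0.0053, Mxi1 -0.013 and Mnt -0.013, and array weights gave Mxd4 -0.022 and Mnt -0.0092. Sex pattern gave Mycn -0.041, Mxi1 -0.077 and Mga -0.031, and the immediate early mean gave Mxd4 -0.014 and Mnt -0.036. Leaving out 1 array at a time gave, in floxed against wild-type, Mxi1 from -0.067 to 0.024, Mga from -0.11 to 0.038 and Mnt from -0.089 to 0.0066. In delta it gave Mxi1 from -0.042 to 0.031, Mlx from -0.031 to 0.063 and Mnt from -0.083 to 0.013 relative to wild-type. Between delta and floxed it gave Mycn from -0.015 to 0.059, Mxi1 from -0.029 to 0.061, Mxd4 from -0.021 to 0.070, Mnt from -0.036 to 0.054 and Max from -0.11 to 0.049. Mycn has no value once dim genes are left out.

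Counts over all genes moved more. The 110 genes called in floxed against wild-type, 70.9% of them higher, became 178 after centring, 83.1% of them higher, 208 with array weights, 193 with the 2 groups alone, 2 with sex pattern, 9 with the T cell mean and 69 with the immediate early mean. Leaving out 1 array gave 18 (without wild-type 2) to 240 (without delta 4). The 15 in delta against wild-type, 40.0% of them higher, became 3 after centring, 66.7% of them higher, 0 with every probe set, 9 with a robust trended prior, 0 with the 2 groups alone, 3 with sex pattern and 1 with the immediate early mean, and 0 to 23 without 1 array. The single gene of delta against floxed became 3 with a robust trended prior and 2 with the 2 groups alone, and 1 to 10 without 1 array. With the replicate block the counts were 188, 6 and 2, and Mxi1 and Mnt became -0.029 and -0.036 in delta against floxed. Array numbers gave no clear sign of pairing: over 9 same-numbered pairs the correlation of deviations was -0.08 to 0.12, with 1 above 0.1. Their median was -0.05, beside 0.02 for other pairs. Deviations from a group mean depend on each other, so this check cannot exclude pairing. No array's depth is known beyond its signal, and 10 arrays limit the precision.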
